A study of Mus musculus with 12 samples.

Results

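Genes that mark blood cell lineages were examined in the accessible chromatin of sorted alveolar type II (AT2) cells, the surfactant-secreting epithelial cells of the lung, as a check of the make-up of the sorted cells. The genes were Ptprc, Cd3e, Lck, Cd79a, Lsp1, Spi1, Csf1r, Cd68, Cd101 and Bcl2a1b, chosen by name as 10 of the 21627 protein-coding genes on the autosomes and X. Earlier results of these data were known when they were chosen. For each gene, peaks of the 12 deposited lists were taken where they overlapped the GRCm38 gene or 10 kb on either side, called its window here. Open chromatin was mapped by Omni-ATAC-seq, where Tn5 transposase inserts adapters into accessible DNA of nuclei. BALB/c mice aged 6 to 8 weeks received labelled tumour cells of a syngeneic line by tail vein, either 4T1, a mammary carcinoma line, or CT26, a colon carcinoma line, and lungs were taken 7 days later. AT2 cells of the metastatic niche and of distal lung were sorted, 50000 per library, giving 3 libraries in each of 4 groups: 4T1 distal, 4T1 niche, CT26 distal and CT26 niche. Each library pooled 5 lungs, and all 4 groups came from mice injected with tumour cells, with none from tumour-free mice. The sources used here do not give the markers or gates of the sort.

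Leukocytes descend from blood stem cells, and each lineage opens its own set of genes: T and B cells those of the antigen receptor complexes, macrophages and neutrophils those driven by the factor PU.1, which Spi1 encodes. Epithelial cells keep most of these genes closed, while their own surfactant and junction genes are open. A gene's start is open in most cells that transcribe it, but an open region within or beside a gene can also belong to a neighbour, so each region was placed relative to the genes around it. The lung holds many resident leukocytes beside its AT2 cells. In a library of many cells, a small number of cells with an open region cannot be told apart from less open chromatin in every cell.

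The RefSeq promoter table for GRCm38.p6 gave a start for 7 of the 10 genes. A peak lay within 1 kb of it in all 12 libraries for 2 of them, Cd68 and Bcl2a1b, and in no library for 5, Ptprc, Cd3e, Lck, Cd79a and Cd101. The sequences upstream of the start are shown for genes of both kinds, because this is where the genes parted. Up to 250 bases before the start are given 5′ to 3′ on the gene's strand, limited to bases outside the annotated gene, which leaves 198 for Cd3e and none for Ptprc. Lck has a second listed start inside the gene, which is not shown. Capitals mark matches on either strand to the PU.1-type ETS motif GAGGAAG, the ETS motif CCGGAAG, the RUNX motif TGTGGT or the AP-1 motif TGANTCA, none of which contains another.
Cd68 chr11:69666171-69666420 minus strand: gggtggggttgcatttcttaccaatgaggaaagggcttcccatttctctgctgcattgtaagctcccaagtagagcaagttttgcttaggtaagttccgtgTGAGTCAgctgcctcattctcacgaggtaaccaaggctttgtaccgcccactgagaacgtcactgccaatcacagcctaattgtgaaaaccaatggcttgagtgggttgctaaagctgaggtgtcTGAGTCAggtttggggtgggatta
Bcl2a1b chr9:89199023-89199272 plus strand: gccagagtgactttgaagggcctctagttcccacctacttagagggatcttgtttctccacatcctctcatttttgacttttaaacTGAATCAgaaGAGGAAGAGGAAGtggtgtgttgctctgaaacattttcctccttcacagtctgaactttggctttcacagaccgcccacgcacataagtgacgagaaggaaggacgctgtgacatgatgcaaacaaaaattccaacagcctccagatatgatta
Cd3e chr9:45009664-45009861 minus strand: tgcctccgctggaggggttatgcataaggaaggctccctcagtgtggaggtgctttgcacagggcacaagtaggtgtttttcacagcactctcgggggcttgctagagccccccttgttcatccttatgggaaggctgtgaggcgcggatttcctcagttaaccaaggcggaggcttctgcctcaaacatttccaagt
Lck chr4:129573642-129573891 minus strand: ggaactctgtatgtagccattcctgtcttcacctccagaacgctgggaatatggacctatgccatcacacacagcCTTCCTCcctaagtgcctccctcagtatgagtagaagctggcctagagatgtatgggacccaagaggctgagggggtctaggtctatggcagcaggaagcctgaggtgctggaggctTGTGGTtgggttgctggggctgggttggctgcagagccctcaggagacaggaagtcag
Cd79a chr7:24897247-24897496 plus strand: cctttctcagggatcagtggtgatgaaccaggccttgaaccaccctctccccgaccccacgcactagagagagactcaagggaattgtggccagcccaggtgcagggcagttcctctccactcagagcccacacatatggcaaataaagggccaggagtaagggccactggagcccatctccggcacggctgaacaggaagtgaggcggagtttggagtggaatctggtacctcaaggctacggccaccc
Cd101 chr3:101029554-101029803 minus strand: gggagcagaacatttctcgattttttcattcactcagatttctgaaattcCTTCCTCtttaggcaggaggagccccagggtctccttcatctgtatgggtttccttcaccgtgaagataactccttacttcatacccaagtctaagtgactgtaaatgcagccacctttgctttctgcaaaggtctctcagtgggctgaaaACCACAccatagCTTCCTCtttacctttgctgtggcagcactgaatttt

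Cd68, open at its start in all 12 libraries, held 2 AP-1 matches. Bcl2a1b, also open in all 12, held 1 AP-1 match and 2 PU.1-type matches that overlap each other. Among the genes with no peak at the start, Cd101 held 2 PU.1-type matches and 1 RUNX match, Lck held 1 of each, and Cd3e and Cd79a held none. In the same 250 bases of all 32851 listed promoters, 10.6% held the PU.1-type motif, 6.91% CCGGAAG, 14.0% the RUNX motif and 6.75% the AP-1 motif. These matches describe the letters only. The number of CG pairs in the 250 bases was 4 for Cd68 and 4 for Bcl2a1b. Genes with a peak at the start in all 12 libraries had a median of 16 CG pairs, and genes with a peak in none a median of 2. The 2 open starts carried fewer than the median open start, and the 4 printed starts without a peak held 1 (Lck), 2 (Cd101), 6 (Cd79a) and 7 (Cd3e).

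Accessible starts of the AT2 program were present throughout, while most leukocyte starts were not. A peak lay within 1 kb of the start in all 12 libraries for 11 of 11 AT2 genes with a listed start, among them Sftpb and Sftpa1, which encode surfactant proteins, and Nkx2-1, the lung lineage factor. The same held for 6 of 6 epithelial genes, including Epcam, a surface adhesion protein, and for 7 of 7 widely expressed genes. Over all 17273 genes with a listed start, 58.3% had a peak there in all 12 libraries and 33.6% in none. Of 88 other leukocyte genes in 9 lists, 71 had a listed start. Of these, 8 (11.3%) had a peak in all 12 libraries and 56 (78.9%) in none. In 16 genes of other organs, such as liver and muscle, 2 starts (12.5%) were called in all 12 libraries and 13 (81.2%) in none. For both groups the share called in all 12 libraries was below that of all genes, and the share called in none was above it. Among endothelial genes 4 of 8 starts were called in all libraries, and among mesenchymal genes 0 of 5.

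**Figure D1:**
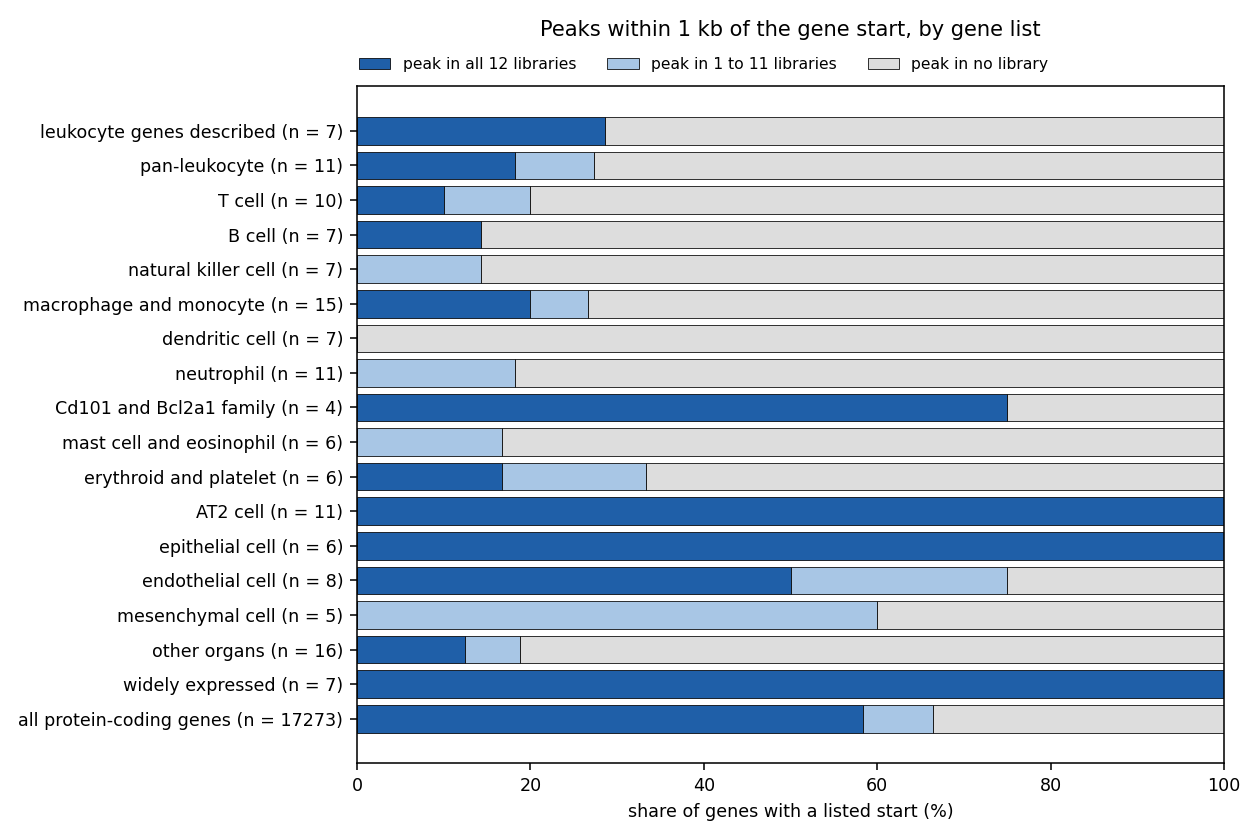
Share of genes with a listed start (x axis, %) that had a peak within 1 kb of it in all 12 libraries, in 1 to 11 or in none, for each gene list (y axis, number of genes in brackets). The bars for AT2, epithelial and widely expressed genes are filled to 100% by starts called in all 12 libraries. Most of each leukocyte bar is grey except that of Cd101 and the Bcl2a1 family, where 3 of 4 starts were called in all 12.

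By lineage, starts called in all 12 libraries were 2 of 11 pan-leukocyte genes (Coro1a and Ikzf1), 1 of 10 T cell genes (Tcf7), 1 of 7 B cell genes (Fcer2a) and 3 of 15 macrophage and monocyte genes (Cd68, Ly6c2 and Fcgr1). None was called in all 12 among 7 natural killer, 7 dendritic, 11 neutrophil or 6 mast cell and eosinophil genes. Coro1a encodes an actin-binding protein, and Ikzf1 and Tcf7 encode transcription factors of lymphoid development. Bcl2a1a and Bcl2a1d, near-identical copies of Bcl2a1b, also had a start peak in all 12 libraries. Reads of such copies can be split or shared between them, so the 3 calls are uncertain as separate facts. Of the 88 other leukocyte genes, 27 had no peak in their window in any library.

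The windows of the 10 genes held 45 regions once peaks of all libraries were merged. All 12 libraries held 20 of them (44.4%), against 42.1% of 83727 regions in the series. Of the 20, 10 overlapped the named gene itself, and 7 lay outside it and at or in another gene. A further 11 regions were held by 1 library and 14 by 2 to 11 libraries. Regions held by 1 library made up 15.3% of all regions in the series. The deposited fold enrichment, the height of a peak over its local background, was read as a percentile among the peaks of its own library, where 100 is the highest.

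**Figure D2:**
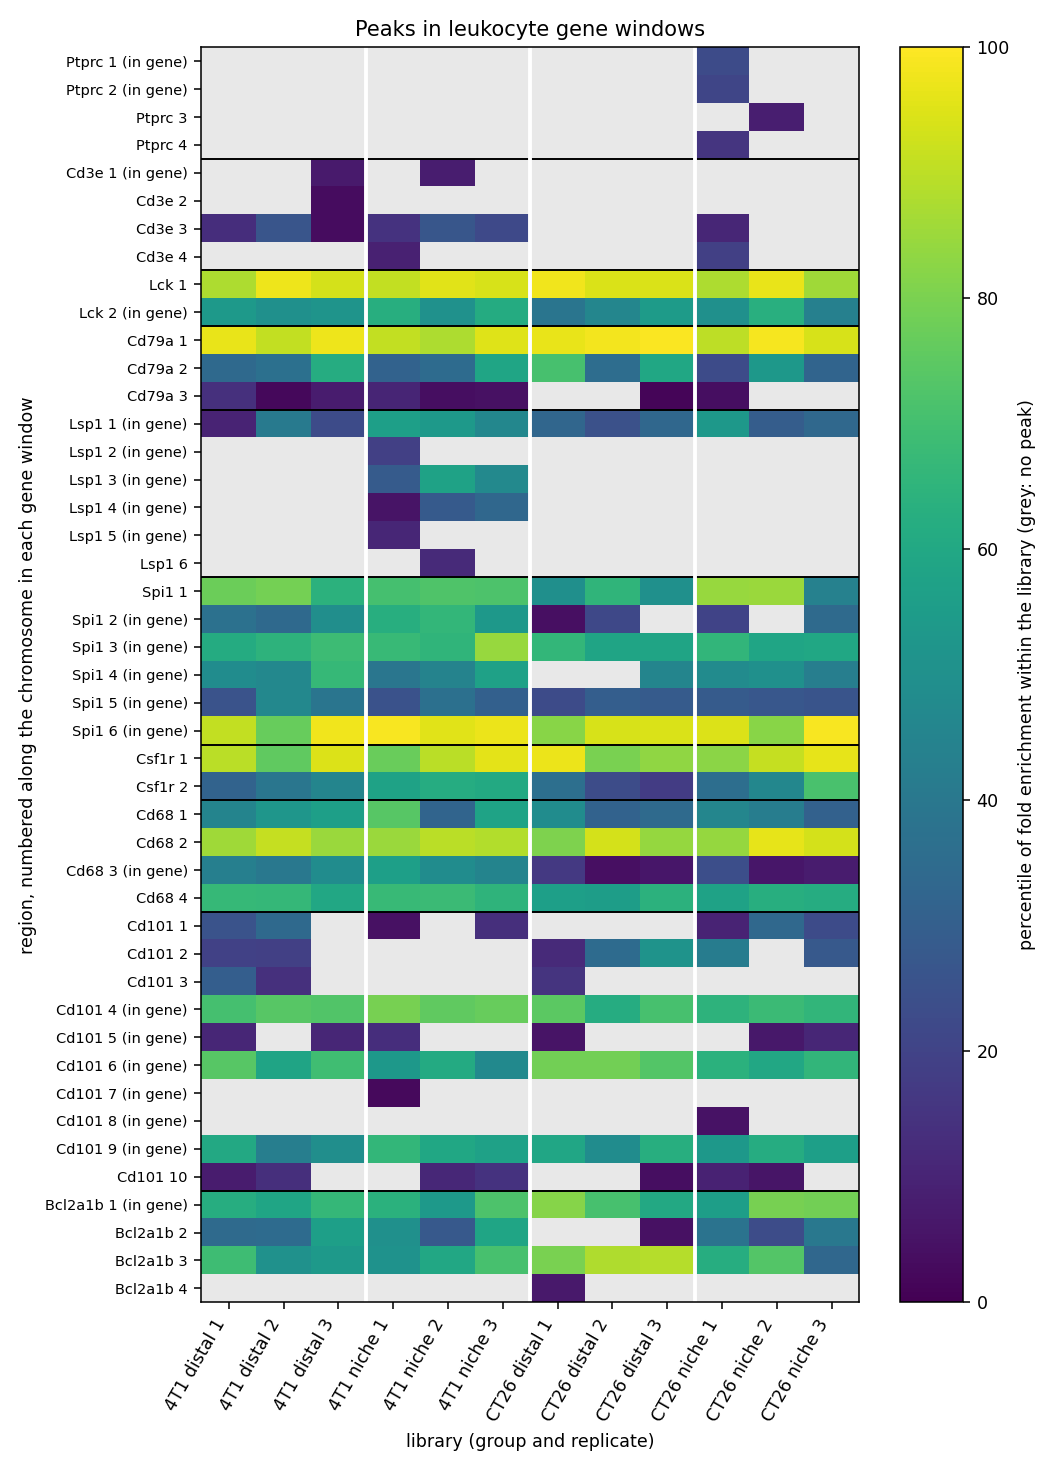
Percentile of the deposited fold enrichment within each library (colour, 0 to 100) for the 45 regions in the gene windows (rows, numbered along the chromosome for each gene) in the 12 libraries (columns), with grey where no peak was called. Rows coloured across all 12 columns lie in Lck, Cd79a, Lsp1, Spi1, Csf1r, Cd68, Cd101 and Bcl2a1b windows, while the Ptprc and Cd3e windows hold none.

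Ptprc encodes CD45, the phosphatase on the surface of nearly all nucleated blood cells, and is commonly used to gate leukocytes out of epithelial sorts. Its window of 132.9 kb (gene at chr1:138062859-138175756) held no peak in 10 of the 12 libraries. In CT26 niche, the length under peaks was 685 bp in replicate 1, 245 bp in replicate 2 and 0 bp in replicate 3. These were 4 short regions of 219 to 245 bp, each held by a single library, at percentiles 8.33 to 22.8. The other 3 groups had none, and the nearest of the 4 lay 4519 bp from a listed start. With peaks in only 2 libraries the gene fell below the minimum of 3 libraries for testing.

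Lsp1 encodes an actin-binding protein of lymphocytes, neutrophils and macrophages. It gave the largest difference between niche and distal among the 9 genes tested. In 4T1 distal libraries 490, 506 and 365 bp of its window (gene at chr7:142458223-142494868) lay under peaks, and in 4T1 niche libraries 2777, 2782 and 2500 bp. CT26 distal libraries had 412, 612 and 685 bp and CT26 niche libraries 674, 481 and 885 bp. All 3 4T1 niche libraries stood above the other 9, and the CT26 groups overlapped. All 12 libraries shared 1 region, chr7:142458902-142459806, which begins 679 bp inside the lower-coordinate end of the gene. Its percentile was 46.4 to 56.3 in 4T1 niche and 9.88 to 41.3 in 4T1 distal. It was 24.7 to 33.3 in CT26 distal and 29.5 to 53.3 in CT26 niche. The rest of the 4T1 niche length came from further inside the gene, apart from 203 bp beyond it in replicate 2.

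Within Lsp1, 2 regions were held by the 3 4T1 niche libraries and by no other library. The first, chr7:142470168-142471329, lay at percentiles 28.9, 57.5 and 47.1 in 4T1 niche replicates 1, 2 and 3. The second, chr7:142481709-142482614, lay at percentiles 5.32, 28.3 and 33.2. Their deposited −log10 q was between 1.17 and 6.85, so they include weak calls. Across the series 1.44% of regions had this pattern, and 2.72% of 4T1 regions were held by all niche and no distal 4T1 libraries. Of the 39 regions that 4T1 libraries held in the 10 windows, these 2 were niche-only in 4T1 and 0 were distal-only (0.15% of 4T1 regions). Among the 37 regions of CT26 libraries 1 was niche-only, at the outer edge of the Cd101 window, and 0 were distal-only. Over all CT26 regions those shares were 1.96% and 0.172%. A further 3 short regions in the Lsp1 window were each held by a single 4T1 niche library. That of replicate 2 lay 2906 bp beyond Lsp1 and overlapped another gene, Prr33.

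**Figure D3:**
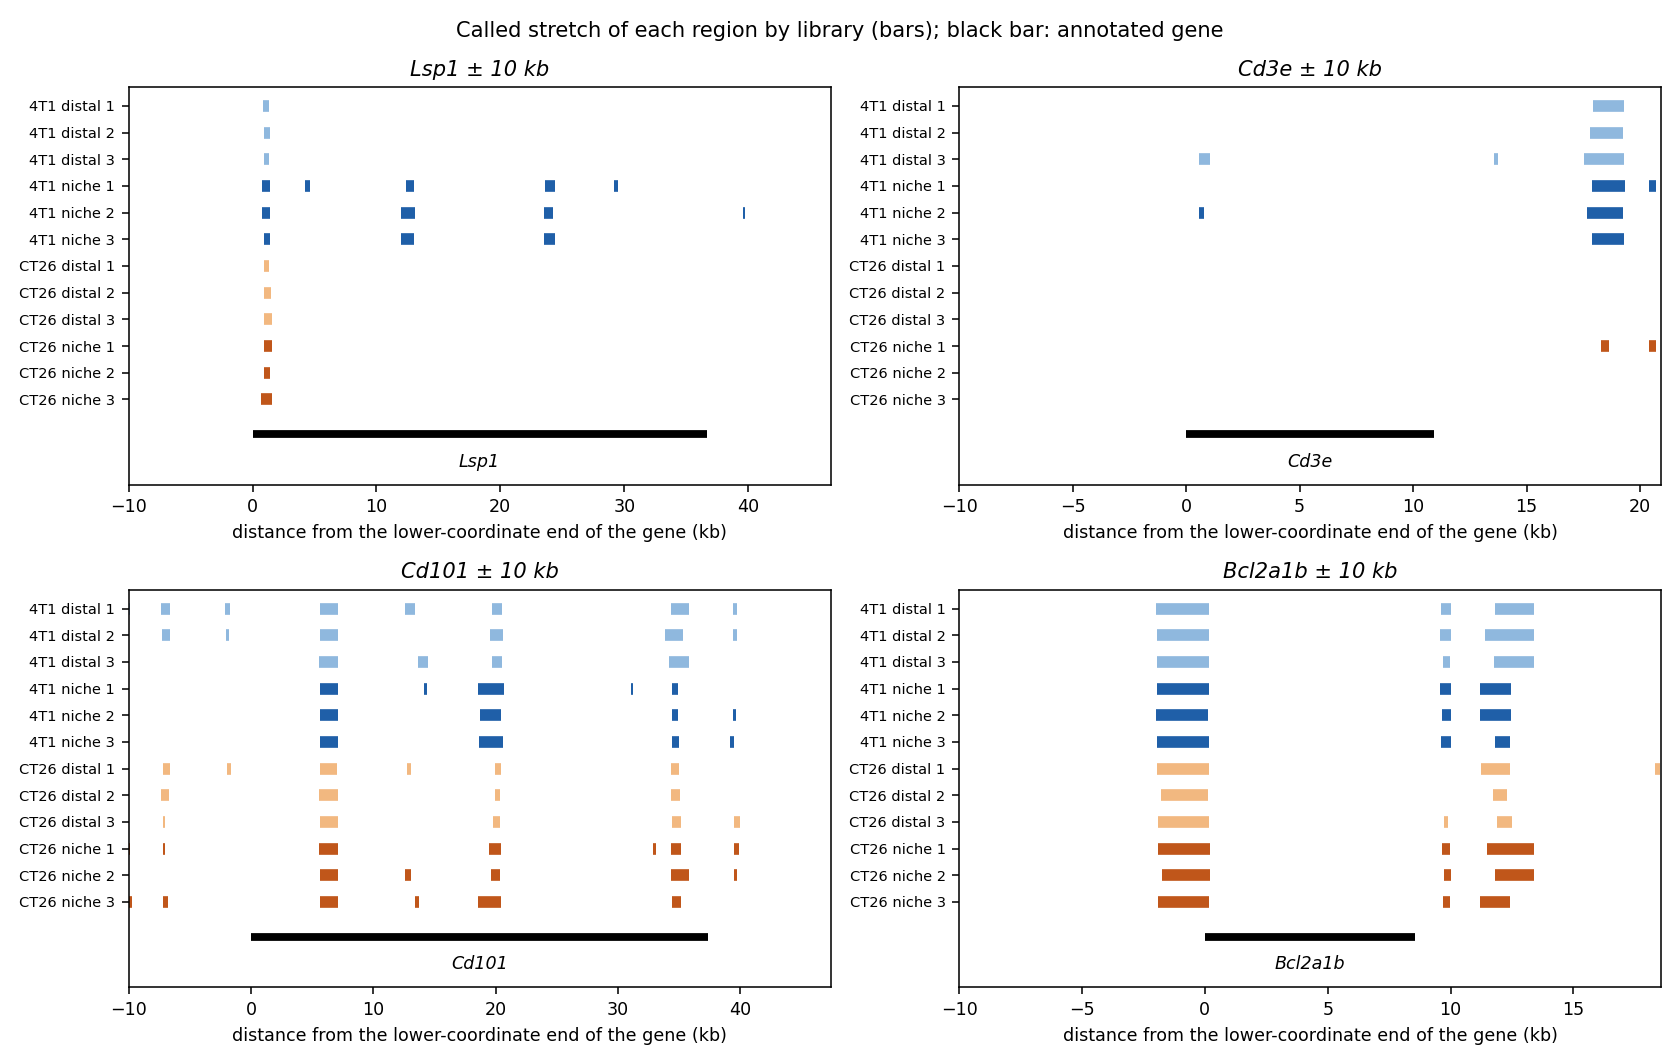
Stretch of each region called in each library (coloured bars, one row per library) against distance from the lower-coordinate end of the gene (x axis, kb), with the annotated gene as a black bar, for Lsp1, Cd3e, Cd101 and Bcl2a1b. In Lsp1, bars near 12.5 and 23.9 kb appear in the 4T1 niche rows only, and in Cd3e the bar beyond the gene appears in all 6 4T1 rows and in 1 CT26 row.

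Cd3e encodes a signalling chain of the T cell receptor complex. No library had a peak within 1 kb of its listed start. Length under peaks in its window (gene at chr9:44998735-45009663) was 1375, 1440 and 2419 bp in 4T1 distal and 1733, 1846 and 1423 bp in 4T1 niche. It was 0 bp in all 3 CT26 distal libraries and 636, 0 and 0 bp in CT26 niche. The 4T1 libraries all stood above the CT26 libraries, and within 4T1 the sites overlapped. Most of this length came from chr9:45016269-45018071, which begins 6606 bp beyond the gene, past the end that holds the start. That region was held by all 6 4T1 libraries and by CT26 niche replicate 1, at percentiles between 3.33 and 26.6. Over the series 0.991% of regions were held by all 6 4T1 libraries and at most 1 CT26 library. Cd3d, which neighbours Cd3e and encodes another chain of the same complex, had 0 bp under peaks in its window in all 12 libraries. The window of Cd3g, the gene of a further CD3 chain, held 1.65 ± 0.759 kb in 4T1 distal, 2.13 ± 0.668 in 4T1 niche, 1.10 ± 0.674 in CT26 distal and 0.886 ± 0.225 in CT26 niche (SD, n = 3), with no peak within 1 kb of its start, and was called in none of the comparisons. A region inside Cd3e itself was called in only 2 libraries, 1 of each 4T1 group, at percentiles 7.12 and 8.16.

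Lck encodes the kinase that starts T cell receptor signalling. Length under peaks was close in all libraries, between 2181 and 2999 bp. A region in the gene, chr4:129554942-129557340, was held by all 12 libraries at percentiles 39.0 to 62.9. It lay 1032 bp from the nearer listed start, just outside the 1 kb limit. The other region overlapped Hdac1, a histone deacetylase gene, at percentiles 85.7 to 97.9.

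Cd79a, a chain of the B cell receptor complex, had no peak within the gene in any library. Its window held 1877 to 3718 bp, all outside the gene. One region began 5 bp beyond Rps19, a ribosomal protein gene, at percentiles 87.7 to 99.6. Another lay at the start of Arhgef1 at percentiles 23.0 to 71.0. A weak further region within Arhgef1 was held by 8 libraries.

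Spi1, the gene of the PU.1 factor, had the region with the highest percentiles inside any of the 10 genes. Length under peaks was 4985, 5155 and 3380 bp in 4T1 distal and 5420, 5451 and 4909 bp in 4T1 niche. CT26 distal libraries had 4101, 3005 and 3652 bp, and CT26 niche libraries 4474, 3108 and 4482 bp. The groups overlapped between sites in both models. Of 6 regions, 5 overlapped the gene (chr2:91082374-91115759) and 4 were held by all 12 libraries. The region chr2:91114921-91115623 ended 136 bp inside the higher-coordinate end of the gene and stood at percentiles 76.9 to 98.9 in all libraries. At the other end, no region lay within 1 kb of the gene's end, and the nearest one inside began 1729 bp from it. Strand is not in the tables used here, so neither end can be named as the start.

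Csf1r encodes the receptor for the macrophage growth factor CSF1. No library had a peak in the gene. Its window held 995 to 1757 bp, from one region 8616 bp away and from one in the neighbouring gene Hmgxb3. Both were held by all 12 libraries, at percentiles 75.5 to 97.3 and 17.6 to 71.1.

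Cd68 encodes a lysosomal membrane protein abundant in macrophages. It is a short gene (chr11:69664213-69666170) among close neighbours, and 3 of its 4 regions lay at the starts of Sox15, Mpdu1 and Eif4a1. The region at its own start, chr11:69666054-69666538, was held by all 12 libraries. Its length was 393, 394 and 420 bp in 4T1 distal, 477, 422 and 409 bp in 4T1 niche, 257, 286 and 248 bp in CT26 distal and 443, 252 and 325 bp in CT26 niche. Its percentile was 39.8 to 48.5 in 4T1 distal and 45.2 to 56.4 in 4T1 niche. In CT26 it was 4.20 to 16.7 in distal and 5.91 to 24.1 in niche libraries. The 6 4T1 libraries stood above the 6 CT26 libraries in percentile without overlap. The share of all regions that part in this way was not counted. A percentile is a rank within its own list, and the lists differed in size. They held 56330 to 58237 peaks in 4T1 distal and 63722 to 66911 in 4T1 niche. CT26 distal lists held 42067 to 50093 and CT26 niche lists 51005 to 55529. The neighbouring start of Mpdu1, which ranked higher in every library, stayed between percentiles 80.5 and 96.5. Percentiles were not tested.

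Cd101 encodes a surface glycoprotein of myeloid cells and some T cells. Its window held 10 regions, more than any other of the genes, and 3 of them, all in the gene (chr3:100992189-101029553), were held by all 12 libraries. Length under peaks was 6113, 5264 and 4826 bp in 4T1 distal and 4579, 4017 and 4424 bp in 4T1 niche. CT26 distal libraries had 3767, 3252 and 3404 bp and CT26 niche libraries 4262, 4374 and 4124 bp. Unscaled, the niche libraries lay below the distal ones in 4T1 and above them in CT26. Scaled to covered length, the CT26 groups overlapped (4.42 ± 0.269 and 4.46 ± 0.406 kb, mean ± SD, n = 3). Called lengths of single regions in 4T1 moved in opposite directions. At chr3:101010739-101012838 the called length was 819, 1105 and 853 bp in distal and 2063, 1756 and 2018 bp in niche. At chr3:101026038-101027983 it was 1456, 1464 and 1613 bp in distal and 519, 564 and 529 bp in niche. Percentiles did not follow these lengths and overlapped between sites. At the longer niche region they were 58.3 to 74.1 in distal and 47.6 to 61.2 in niche. At the shorter niche region they were 42.8 to 60.3 in distal and 57.3 to 66.3 in niche. The remaining region held by all 12 libraries, chr3:100997766-100999290, stayed between 1396 and 1516 bp. The region in the gene nearest its start lay 1570 bp from it.

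Bcl2a1b encodes a BCL2-family protein that protects haematopoietic cells from cell death. The region at its start, chr9:89197273-89199473, was held by all 12 libraries at percentiles 53.6 to 81.7. Only 0.145 ± 0.0115 to 0.188 ± 0.0167 kb of it per group (mean ± SD, n = 3) lay inside the gene. Length under peaks in the window was 4162, 4589 and 4020 bp in 4T1 distal, 3807, 3750 and 3149 bp in 4T1 niche, 2751, 2473 and 2869 bp in CT26 distal and 4336, 3836 and 3542 bp in CT26 niche. The niche libraries were lower than the distal ones in 4T1 and higher in CT26, without overlap in either model, both unscaled and scaled to covered length. In scaled length 19.5% of all loci were lower in 4T1 niche without overlap, and 6.76% were higher in CT26 niche. Unscaled shares were not counted, and CT26 niche libraries covered more length in total than CT26 distal ones. At the start itself 4T1 distal libraries had 2090 to 2150 bp and 4T1 niche libraries 2084 to 2132 bp. The difference within 4T1 came instead from the start of the neighbour Mthfs, a folate enzyme gene, with 1620, 2021 and 1655 bp in distal and 1241, 1262 and 625 bp in niche. Its percentiles overlapped, at 50.5 to 69.0 in 4T1 distal and 50.8 to 70.7 in 4T1 niche. In CT26 the Mthfs start had 1185, 566 and 610 bp in distal and 1938, 1588 and 1198 bp in niche. The Bcl2a1b start had 1340 to 2084 bp in CT26 distal and 1950 to 2107 bp in CT26 niche.

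**Figure D4:**
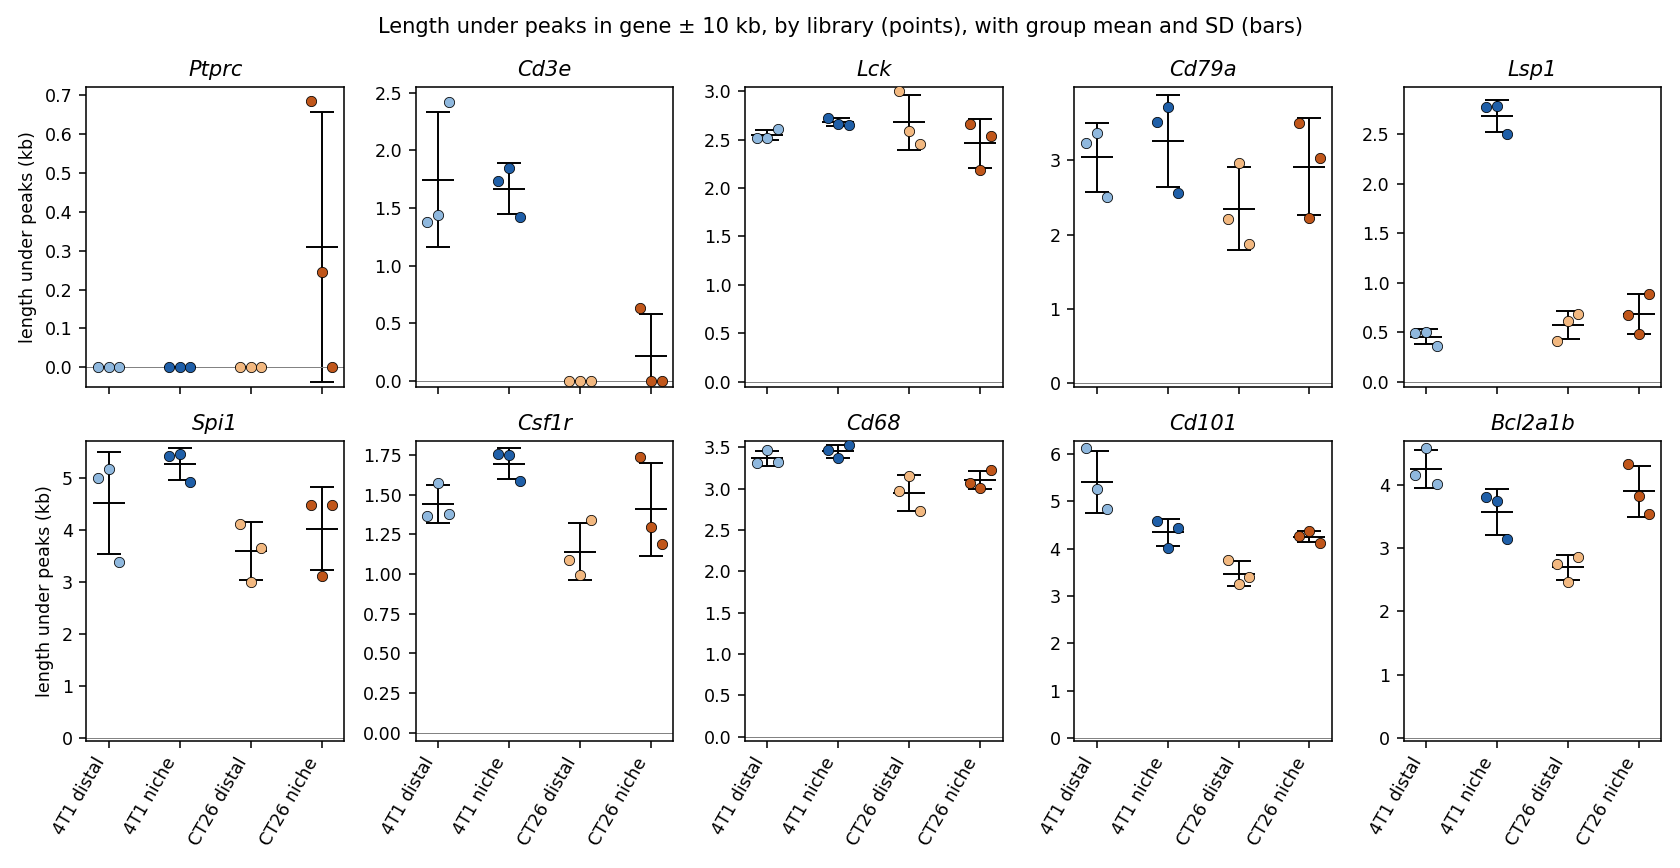
Length under peaks in each gene and 10 kb on either side (y axis, kb, own scale per panel) in the 12 libraries (points), with the group mean and SD (bars, n = 3). The 3 4T1 niche points of Lsp1 lie at 2.5 to 2.78 kb above all others, and the Cd3e points of both 4T1 groups lie above those of CT26.

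Comparisons between groups were made on length under peaks, scaled to the total length covered in each library, with limma on log2 of the scaled length plus 500 bp. Total covered length differed by group (41.96 to 45.69 Mb in 4T1 distal, 49.08 to 51.89 in 4T1 niche, 31.36 to 34.44 in CT26 distal and 38.25 to 44.70 in CT26 niche), with 42067 to 66911 peaks per library. Without scaling the median log2 change of all loci was 0.12 for niche against distal in 4T1, 0.18 in CT26 and −0.21 for CT26 against 4T1. With scaling these medians were −0.05, −0.04 and 0.08. Each change below is relative to them and is no fold of chromatin opening. The p-values measure the spread between 3 pooled samples per group, and 9 of the 10 genes could be tested.

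In 4T1, niche against distal, 3 of the 9 tested genes passed an adjusted p of 0.05, against 0.624% of 16819 loci tested. The genes were chosen with earlier results of these data known, so such shares here and below do not test the set. Lsp1 rose, with a log2 change of 1.55 ± 0.14 (SE, n = 3 and 3, limma adjusted p = 0.000619), relative to 0.595% of all loci called higher. Cd101 changed by −0.46 ± 0.09 (limma adjusted p = 0.0494) and Bcl2a1b by −0.40 ± 0.07 (limma adjusted p = 0.0219), where 0.0297% of loci were called lower. These shares are 100 loci higher and 5 lower with scaling, and 565 and 4 without. The median over the 9 genes was −0.11. In scaled length 1 of the 9 genes, Lsp1, was higher in niche without overlap, where 8.09% of all loci were, and 4 were lower (Bcl2a1b, Cd101, Cd68 and Lck), where 19.5% were. Lsp1 kept its call without each of the 6 4T1 libraries. The call was lost when each library was limited to 42067 peaks, the length of the shortest list, taken by −log10 p (1.29, limma adjusted p = 0.145), and when peaks with −log10 q under 5 were dropped (0.98, limma adjusted p = 0.729). The Cd101 call was lost in 14 of 16 alternatives and the Bcl2a1b call in 10 of 16. Over the Bcl2a1b gene without flanks the log2 change was −0.08.

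In CT26, niche against distal, 0 of the 9 genes passed with limma, against 0.672% of loci (0.523% higher and 0.149% lower). At an unadjusted p under 0.05, 3194 of 16819 loci did. Lsp1 had a log2 change of −0.02 ± 0.14 (limma adjusted p = 0.958), Lck of −0.35 ± 0.08 (limma adjusted p = 0.0833) and Bcl2a1b of 0.22 ± 0.07 (limma adjusted p = 0.136). The median over the 9 genes was 0.0077. In scaled length 1 gene, Bcl2a1b, was higher in niche without overlap (6.76% of all loci) and 1, Lck, was lower (15.3%). Bcl2a1b passed without scaling (0.46, limma adjusted p = 0.0154) and with equally long peak lists (0.37, limma adjusted p = 0.0432). Of the loci called in CT26, 88 were higher and 25 lower with scaling, and 2014 and 16 without.

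The niche difference of Lsp1 was itself different between the models. The CT26 difference minus the 4T1 difference was −1.57 ± 0.20 (SE, limma adjusted p = 0.0222), where 0.0595% of loci were called, 0.0178% higher and 0.0416% lower. Leaving out any 1 of the 6 4T1 libraries gave values from −1.59 to −1.52 and adjusted p from 0.0560 to 0.110, and without CT26 niche replicate 2 it was −1.46 with adjusted p = 0.0604 in limma. For Bcl2a1b the difference was 0.62 ± 0.10 (limma adjusted p = 0.0516), which does not pass 0.05. Over both models together, Lsp1 rose by 0.76 ± 0.10 (limma adjusted p = 0.00472) as 1 of 9 genes called, against 2.38% of loci (1.5% higher and 0.886% lower). Within the models its change was 1.55 in 4T1 and −0.02 in CT26. Over all loci this comparison called 252 higher and 149 lower, and 3956 and 25 without scaling.

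Between models, CT26 against 4T1 over both sites, 3 of 9 genes passed, against 24.1% of loci (19.2% higher and 4.92% lower). In scaled length 0 genes were higher in CT26 than in 4T1 without overlap (4.23% of all loci) and 1, Cd3e, was lower (0.713%). Cd3e was lower in CT26, with a log2 change of −1.81 ± 0.20 (limma adjusted p = 0.00232). All CT26 distal libraries were at 0 bp, so the size depends on the 500 bp added, and the group with no spread lowers the spread used in the test. Lsp1 was lower in CT26 (−0.40 ± 0.10, limma adjusted p = 0.0182) and Lck higher (0.29 ± 0.06, limma adjusted p = 0.00981). Lck turned to −0.024 without scaling (limma adjusted p = 0.725). Lsp1 turned to 0.24 with equally long peak lists (limma adjusted p = 0.562), a setting in which none of the genes was called and Cd3e had peaks in too few libraries to test. Over all loci this comparison called 3232 higher and 827 lower, and 21 and 7786 without scaling.

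**Figure D5:**
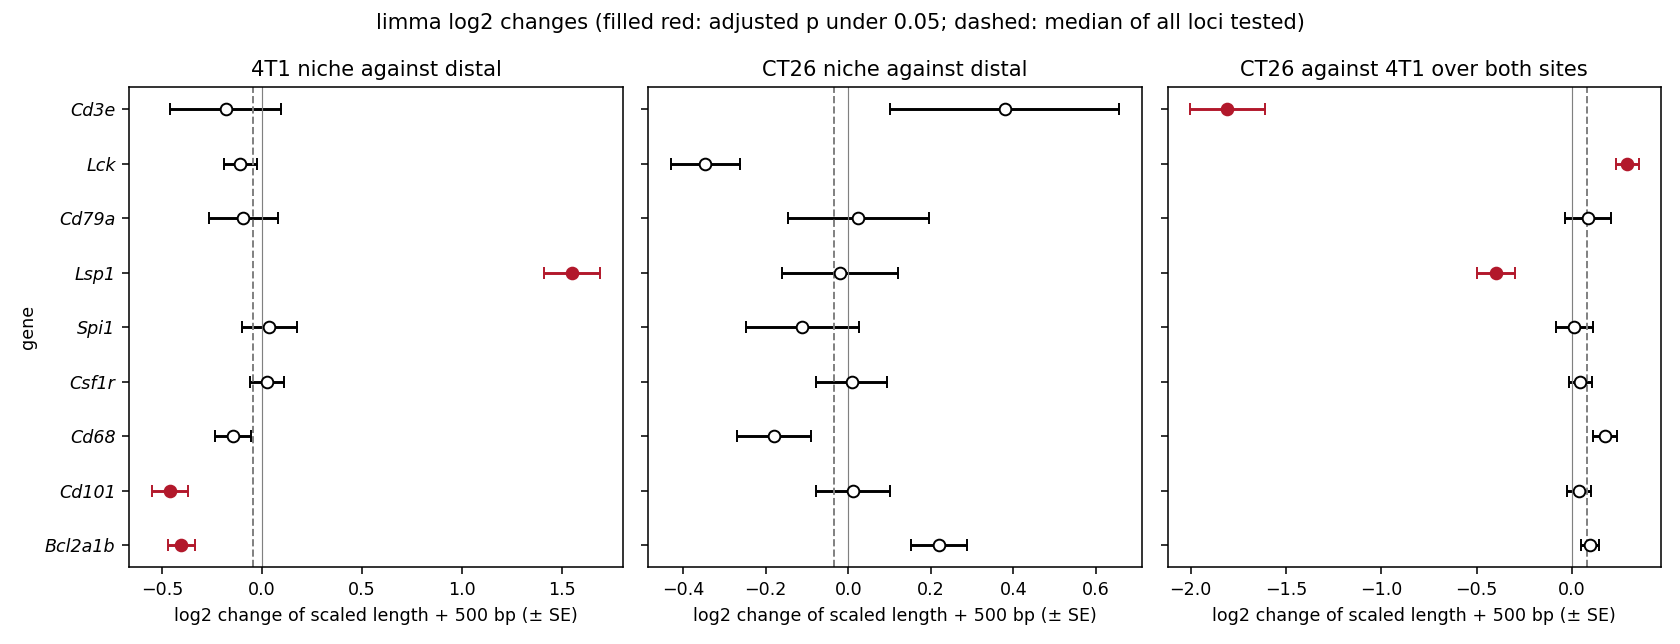
Log2 change of scaled length under peaks plus 500 bp (x axis, with SE) for the 9 tested genes (y axis) in 3 comparisons, filled red where the limma adjusted p was under 0.05, with the median of all loci as a dashed line. Lsp1 at 1.55 stands far right of the dashed line in the 4T1 panel and at −0.02 in the CT26 panel, and Cd3e at −1.81 stands far left in the panel of models.

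The niche difference of Lsp1 was set beside the other leukocyte genes. Of the 88 others, 56 could be tested, and 0 were called by limma in either niche against distal comparison, in the one over both models or in the difference between models. The share of all loci called between sites was 0.624% in 4T1 and 0.672% in CT26, near which 0 of 56 lies. In 4T1 the median log2 change of the 56 was −0.02, against −0.05 over all loci. Some uncalled genes had more length in 4T1 niche and others less, and 2 of each kind are given here, chosen after their values were seen. Less was held by the T cell genes Cd28 (log2 change −0.46 ± 0.36, limma adjusted p = 0.585) and Lat (−0.31 ± 0.15, limma adjusted p = 0.412). Itgb2, the integrin chain CD18, held 0.176 ± 0.305 kb in 4T1 distal and 1.16 ± 0.334 in 4T1 niche (log2 change 1.18 ± 0.30, limma adjusted p = 0.116). Camp, a neutrophil granule peptide gene, held 0.369 ± 0.107 kb in 4T1 niche and 0 kb in the other 3 groups, with a peak at its start in 3 libraries (limma adjusted p = 0.102). Between models 5 were higher in CT26 (Was, Cd37, Cr2, Eomes and Cd14, 0.16 to 0.38) and 1 was lower, Itgam, the integrin chain of CD11b (−1.19 ± 0.25, limma adjusted p = 0.01). Over all loci 19.2% were called higher and 4.92% lower, so 5 and 1 of 56 do not exceed the background. Their summed scaled length was 82.4 to 86.3 kb in 4T1 distal libraries and 80.9 to 85.9 kb in 4T1 niche, 81.0 to 84.8 kb in CT26 distal and 85.5 to 86.2 kb in CT26 niche. Neighbouring windows overlap, so a region can enter this sum more than once. The 14 T cell genes other than Cd3e and Lck summed to 19.4 to 20.6, 19.3 to 21.2, 16.2 to 20.7 and 16.7 to 19.3 kb in the same order.

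Markers of other lung cells were read in the same way. Pecam1, the endothelial adhesion protein CD31 that leukocytes and platelets also carry, was the 1 of 10 tested endothelial genes called higher in niche over both models (0.70 ± 0.16, limma adjusted p = 0.0432). Over all loci 1.5% were called higher in that comparison. The Pecam1 window held 2.56 ± 0.0895 kb in 4T1 distal, 5.47 ± 1.11 in 4T1 niche, 1.27 ± 0.549 in CT26 distal and 2.63 ± 0.749 in CT26 niche (SD, n = 3). Cdh5, an endothelial cadherin, held at most 0.110 ± 0.190 kb in any group. The summed scaled length of the 11 endothelial genes was 16.7 to 18.0, 19.1 to 22.2, 16.8 to 17.8 and 17.1 to 20.2 kb. The 9 mesenchymal genes summed to 4.87 to 8.11, 7.67 to 9.09, 5.26 to 6.44 and 7.55 to 10.8 kb, with 0 of 7 tested called between sites. The part of such cells in the Lsp1 difference was not tested. Of the 14 tested AT2 genes only Sftpb, a surfactant protein gene, was called between sites, at −0.36 ± 0.07 over both models (limma adjusted p = 0.0249). Over all loci 0.886% were called lower in that comparison. Sftpc, the surfactant gene that defines AT2 cells, held 5.33 ± 0.0931 to 6.66 ± 0.902 kb in its window per group and passed in none of the 5 comparisons.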

How the data were processed

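Omni-ATAC-seq was measured in 12 libraries, and the authors deposited 1 broad peak list per library in GRCm38 coordinates. The submitters' processing notes name MACS2 and bedtools; the sources used here do not give aligner, filters or settings. The authors' caller wrote a fold enrichment (a ratio over local background within a library), −log10 p and −log10 q values and a score per peak. The −log10 p ranked peaks in 1 alternative, and the score was not used. The lowest deposited −log10 q was at least 1. The lists hold no read counts, so depth is unknown and no counting interval is given.

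Peaks on the 19 autosomes and X were merged into regions at 1 bp overlap. Length under peaks was summed over each protein-coding gene and 10 kb per side, divided by the library's total covered length relative to the mean, and tested where 3 or more libraries had a peak. Log2 of scaled length plus 500 bp was fitted with limma 3.58.1 (R 4.3.3) as 4 group means, with eBayes and a trend, 8 residual degrees of freedom and Benjamini-Hochberg adjustment over all 16819 loci at 0.05. Deposited fold enrichment was ranked within each library and not tested. The scripts were tested on simulated data.

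Gene starts and sequences came from RefSeq tables of GRCm38.p6. For Lsp1, Spi1 and Csf1r both gene ends were used in place of a start. All 10 genes are named; log2 changes are given for those called and for others as reference, and list genes are named where called or as defining markers. A few comparison genes (Coro1a, Ikzf1, Tcf7, Fcer2a, Ly6c2, Fcgr1, Bcl2a1a, Bcl2a1d, Cd3d, Cd3g, Cd28, Lat, Itgb2 and Camp) were named after their values were seen. The genes, lists and rules were chosen with earlier results of these data known. Deviations of same-numbered libraries from their group means had r between −0.0903 and 0.0891 across loci, over pairs within and across models. No same-numbered pair exceeded 0.1, and replicate numbers were not treated as pairs in the main fit. Within 4T1, each library correlated best with its own number at the other site (r of 0.0891, 0.0378 and 0.0288). In CT26 none did (0.0112, 0.0177 and −0.0439). A replicate block was fitted as an alternative.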

Additional observations from a re-analysis of the deposited data

Results flagged for a closer look

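The niche difference of Lsp1 was flagged because it differed between the tumour models by a test of the difference itself. In 4T1 the log2 change of scaled length under peaks was 1.55 and in CT26 it was −0.02, and the CT26 difference minus the 4T1 difference was −1.57 ± 0.20 (SE, limma adjusted p = 0.0222). The call was lost in 11 of 22 alternatives. Without any 1 of the 4T1 libraries the limma adjusted p was 0.0560 to 0.110, without CT26 niche replicate 2 it was 0.0604, with a replicate block 0.0663 and with 50 kb flanks 0.0953. With equally long peak lists it was 0.497, and with −log10 q of at least 5 it was 0.783. All 3 4T1 niche libraries were above all 3 4T1 distal libraries, while the CT26 libraries of both sites overlapped.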

How the results depend on the processing

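The number of the 10 genes called, 3, 0, 1 and 3 for 4T1 sites, CT26 sites, sites over both models and models, and 1 for the difference between models, depended on the settings. Without scaling it was 1 for 4T1 sites, 1 for CT26 sites and 7 for models. With each library limited to 42067 peaks it was 0, 1, 0 and 0 in the first 4 comparisons, and with −log10 q of at least 5 it was 0 for 4T1 sites and 0 for sites over both models. With 2 kb flanks it was 1 for 4T1 sites, and over the gene without flanks, a setting chosen after seeing the data, also 1. With 50 kb flanks it was 1 for models and 0 for the difference between models, where 100 bp added gave 2 and no filter on loci 2 (Lsp1 and Bcl2a1b). Leaving out 1 library gave 1 to 2 for 4T1 sites, 0 to 0 for CT26 sites, 1 to 2 for sites over both models, 3 to 4 for models and 0 to 1 for the difference. Of single genes, 2 reversed: Lck between models without scaling (−0.0240) and Lsp1 between models with equally long lists (0.24). The cause was not tested. Cd3e had too few libraries with a peak to be tested with equally long lists, with −log10 q of at least 5, with 2 kb flanks or without flanks, and was called lower in CT26 in all 18 alternatives that gave a value (−3.52 to −0.48).

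Regions held by all 12 libraries fell from 20 to 13 with −log10 q of at least 5. Genes with a peak at a start or end in all 12 libraries, 4 when either end counted for the 3 genes with no listed start, were 2 with −log10 q of at least 5 and 2 within 200 bp of the start. With a replicate block, 2, 0, 1, 3 and 0 genes were called, and the Lsp1 difference between models had an adjusted p of 0.0663 (limma). The Cd101 call between 4T1 sites was also lost (limma adjusted p = 0.0919). The block gave 77, 62, 214, 3757 and 3 loci in all, against 105, 113, 401, 4059 and 10. Between the sites of a model, 6 of 12 libraries correlated best with their own number, each of them in 4T1. Equally long lists gave 46, 83, 98, 94 and 13 loci, no scaling 569, 2030, 3981, 7807 and 25, and −log10 q of at least 5 gave 44, 224, 192, 6381 and 81. With 100 bp added 62 loci passed for 4T1 sites, with 50 kb flanks 171, 309 and 721 for the 3 site comparisons, and without flanks 48 for the difference between models. Length under peaks depends on which peaks pass the caller, and so on depth, which is unknown.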
